A study of Mus musculus with 14 samples.

Results

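Of the 2395 BAP1 peaks listed on chromosomes 1 to 19, X and Y of mouse embryonic stem cells, 277 lay on an RNF2 peak that was listed in the second, deeper wild-type RNF2 library but not in the first. These BAP1 peaks at weak RNF2 sites were chosen by measured values, namely the overlap (at least 1 bp) of the deposited peak lists, so their RNF2 status in wild-type cells is the selection itself and not a result. The other BAP1 peaks comprised 1850 on an RNF2 peak of the first wild-type library, all of which also lay on one of the second, and 268 on no wild-type RNF2 peak.

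Chromatin immunoprecipitation with sequencing (ChIP-seq) had been done on C57BL/6 embryonic stem cells, in 7 ChIP libraries with 7 input libraries. Treatment of every culture lasted 4 days and combined 100 nM 4-OHT, the active form of tamoxifen, with emricasan at 10 µM, which inhibits caspases. BAP1 was mapped in 1 library of Bap1 C91A/- cells, whose remaining allele carries the C91A change of the catalytic cysteine, after an added crosslink with 2 mM disuccinimidyl glutarate for 30 min, and in 1 library of BAP1 knockout cells as the control of the antibody. The RNF2 antibody was used on 2 wild-type libraries, on 2 from BAP1 knockout cells and on 1 from RNF2 knockout cells. The Cre line, the floxed alleles and the number of clones are not given in the sources used here, and nothing states that the replicates came from separate cultures, so their spread may be technical.

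RNF2, also called RING1B, is the catalytic E3 ligase of Polycomb repressive complex 1 and places ubiquitin on histone H2A. BAP1 is the deubiquitinase of the PR-DUB complex and removes that ubiquitin. In embryonic stem cells RNF2 is best known from broad domains over silent developmental genes, whereas BAP1 has been linked through partners such as HCFC1, FOXK proteins and YY1 to the promoters of active genes.

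The libraries set limits on every value below. Tag counts of the first RNF2 libraries were 58.4 M (wild type) and 54.1 M (BAP1 knockout), those of the second ones 149 M and 139 M, and the peak-calling settings changed with the replicate number. The second wild-type library listed 28770 RNF2 peaks against 4038 in the first. For a site listed only in the second, depth, caller settings and replicate cannot be told apart. The RNF2 knockout library listed 0 peaks with 119 M tags. None of the 277 members overlapped a BAP1 peak of the BAP1 knockout control, which held 32.5 M tags against 415 M in the C91A library and for which the labels give no added crosslink. An absent peak in the control is thus a weak check. BAP1 was not mapped in unmodified cells, RNF2 was not mapped in C91A cells, and expression data were not analysed here.

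The promoters below show what the sites look like at the sequence level. They are the 6 protein-coding promoters with the highest BAP1 fold enrichment among those whose window held both the BAP1 summit and a match to any of 4 motifs, with 1 promoter for each BAP1 peak and ties in alphabetical order, a choice made after the values were seen. Each runs from 250 bases before the start site to 50 bases after it, 5′ to 3′ along the gene, from RefSeq (GRCm38.p6). Capitals mark the letters CCGGAAG (the core bound by ETS factors such as GABPA), CGCANGCG (NRF1), ATGGCGGC (YY1) or TGTTTAC (forkhead factors, FOXK included), on either strand.
Lsm7 promoter, chr10:80855107-80855406, minus strand: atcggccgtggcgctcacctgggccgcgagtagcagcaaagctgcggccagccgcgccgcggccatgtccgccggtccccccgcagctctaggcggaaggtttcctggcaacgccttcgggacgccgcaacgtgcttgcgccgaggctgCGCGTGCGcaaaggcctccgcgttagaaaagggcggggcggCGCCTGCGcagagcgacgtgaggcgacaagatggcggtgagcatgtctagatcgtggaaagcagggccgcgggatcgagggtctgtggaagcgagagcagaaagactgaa
Psme3 promoter, chr11:101315963-101316262, plus strand: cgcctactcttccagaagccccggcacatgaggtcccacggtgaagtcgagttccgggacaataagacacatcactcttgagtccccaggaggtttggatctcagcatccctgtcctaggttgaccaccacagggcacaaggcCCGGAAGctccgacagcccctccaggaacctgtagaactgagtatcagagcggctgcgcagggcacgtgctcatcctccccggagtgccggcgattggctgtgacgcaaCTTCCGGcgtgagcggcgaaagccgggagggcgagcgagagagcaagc
Crbn promoter, chr6:106800038-106800337, minus strand: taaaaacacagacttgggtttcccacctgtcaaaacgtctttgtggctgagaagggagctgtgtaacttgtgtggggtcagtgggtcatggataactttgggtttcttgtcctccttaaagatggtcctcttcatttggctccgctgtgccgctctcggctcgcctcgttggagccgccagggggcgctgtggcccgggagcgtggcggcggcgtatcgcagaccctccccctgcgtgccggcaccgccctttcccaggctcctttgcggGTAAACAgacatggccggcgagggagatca
Ankrd13c promoter, chr3:157946750-157947049, plus strand: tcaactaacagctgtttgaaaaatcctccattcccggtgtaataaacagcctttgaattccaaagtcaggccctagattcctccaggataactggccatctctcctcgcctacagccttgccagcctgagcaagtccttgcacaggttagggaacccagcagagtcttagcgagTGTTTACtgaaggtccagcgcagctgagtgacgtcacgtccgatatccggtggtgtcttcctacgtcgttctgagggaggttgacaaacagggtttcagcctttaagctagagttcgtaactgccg
Fancm promoter, chr12:65075353-65075652, plus strand: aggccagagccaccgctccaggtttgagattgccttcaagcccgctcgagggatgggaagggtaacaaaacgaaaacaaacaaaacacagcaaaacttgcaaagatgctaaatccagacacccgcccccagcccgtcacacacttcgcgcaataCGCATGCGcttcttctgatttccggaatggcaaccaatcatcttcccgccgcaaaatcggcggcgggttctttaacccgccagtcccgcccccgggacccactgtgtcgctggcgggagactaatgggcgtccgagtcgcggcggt
Gtf2h1 promoter, chr7:46795844-46796143, plus strand: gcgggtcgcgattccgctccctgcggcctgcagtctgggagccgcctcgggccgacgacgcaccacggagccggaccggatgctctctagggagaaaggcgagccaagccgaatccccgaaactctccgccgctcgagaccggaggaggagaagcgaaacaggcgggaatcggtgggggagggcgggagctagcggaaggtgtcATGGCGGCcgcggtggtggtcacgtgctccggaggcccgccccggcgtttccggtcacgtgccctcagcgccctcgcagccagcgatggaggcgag

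The Lsm7 window held 2 NRF1 matches, 101 and 60 bases upstream of the start. Psme3 carried an ETS match 107 bases upstream and another that began 2 bases downstream. Crbn and Ankrd13c each carried a forkhead match, 20 bases downstream and 76 bases upstream. The match to NRF1 at Fancm, a DNA helicase of the Fanconi anemia pathway, lay 96 bases upstream, and that to YY1 at Gtf2h1 lay 46 bases upstream. BAP1 fold enrichment at these 6 ran from 5.52 at Lsm7 to 4.29 at Fancm and Gtf2h1, and the RNF2 fold of the second wild-type list from 1.96 at Crbn to 5.89 at Lsm7.

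The members sat at the starts of genes. The BAP1 summit lay within 1 kb of an annotated start of a protein-coding gene for 212 of the 269 members on chromosomes with start sites in the table (78.8%, Wilson 95% interval 73.5 to 83.3), and within 250 bp for 164 (61.0%, 55 to 66.6). The median distance was 180 bp. BAP1 peaks on the first wild-type RNF2 peaks were placed otherwise: 8.01% (6.85 to 9.35) had a start within 250 bp, and their median distance was 3336 bp. BAP1 peaks without wild-type RNF2 resembled the members in this measure, with 65.0% (59.0 to 70.5) and 172.5 bp. Of the members within 1 kb of a start, 128 of 212 had their summit downstream of it (60.4%, 53.7 to 66.7). Intervals of shares cover counting error only here and below.

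**Figure D1:**
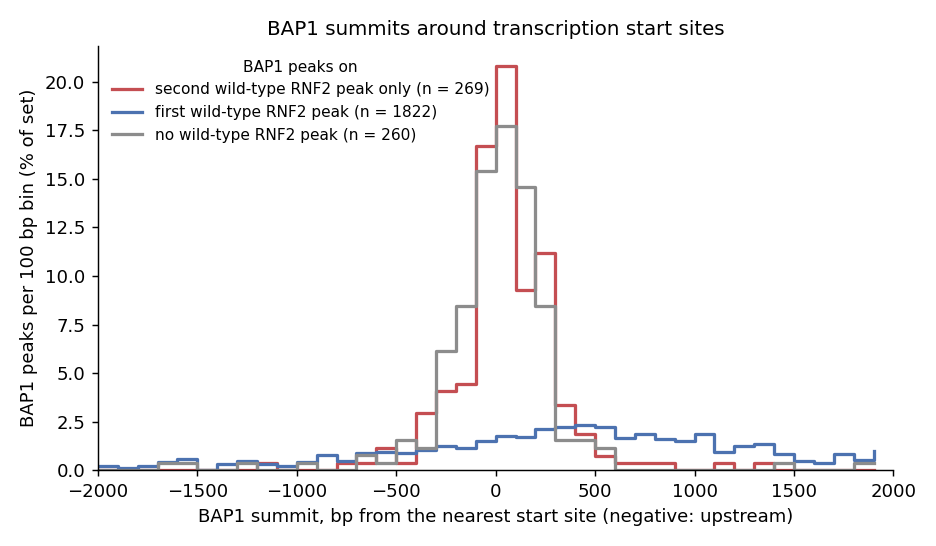
BAP1 summits by distance from the nearest annotated start site (x axis, bp, negative upstream) as a percentage of each set per 100 bp bin (y axis), for the 269 members, 1822 BAP1 peaks on first wild-type RNF2 peaks and 260 on no wild-type RNF2 peak that lie on chromosomes with start sites in the table. The lines of the members and of the peaks without RNF2 rise at the start site, where 61.0% and 65.0% lie within 250 bp, and the line of the peaks on first wild-type RNF2 stays low, with 8.01%. Start sites are those of 17491 of the 21775 protein-coding genes.

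The same placement was seen with the ends of gene models, which cover all chromosomes. A protein-coding gene end lay within 1 kb of 236 of 277 members (85.2%, 80.5 to 88.9), of 41.4% (39.1 to 43.6) of the BAP1 peaks on first wild-type RNF2 and of 83.2% (78.3 to 87.2) of those without RNF2. Among all 25544 RNF2 peaks listed in the second wild-type library and not the first, with or without BAP1, the share was 44.5%. The 241 of them that carried a member and met no first wild-type peak anywhere gave 86.7% (81.9 to 90.4), so the weak RNF2 peaks with BAP1 were at gene ends more often than weak RNF2 peaks at large, by a margin well past the counting interval. Gene ends of at least 2 genes lay at 55 members (19.9%, 15.6 to 25), against 1.14% of the BAP1 peaks on first wild-type RNF2 and 31.0% of those without RNF2. Divergent starts, a pair of genes transcribed away from each other, were found for 14.2% (10.1 to 19.5) of the members with a start within 1 kb, for 0.774% (0.301 to 1.97) and for 19.9% (15 to 25.9), in the same order. Of the remaining members, 34 lay inside a gene away from its ends and 7 outside genes.

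BAP1 itself was listed with similar strength in all 3 sets. Fold enrichment, which is the authors' ratio of signal at the summit over local background, had a median of 3.45 over the members (lowest 2.47, highest 5.52), 3.49 on first wild-type RNF2 and 3.40 without RNF2. The median peak width was 113 bp over the members and 112.5 bp without RNF2. The RNF2 peaks under them were unlike. In the second wild-type list, the RNF2 peak under a member had a median fold enrichment of 3.39 (quartiles 2.83 and 4.48) and was 468 bp wide, against 17.6 and 15130 bp under the BAP1 peaks on first wild-type RNF2. This follows from the selection and is given as a description. The RNF2 and BAP1 summits lay close together at the members, with a median of 92 bp between them and 210 of 277 within 250 bp, while the median on first wild-type RNF2 peaks was 937.5 bp. Narrow RNF2 peaks leave less room for distance, so the widths above belong beside that figure.

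**Figure D2:**
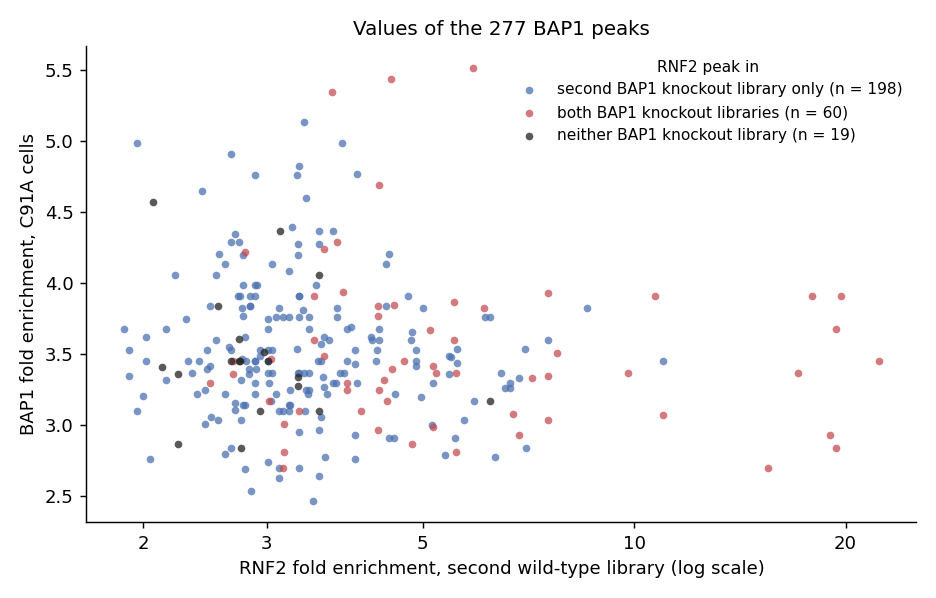
Each of the 277 members by the authors' RNF2 fold enrichment of its second wild-type peak (x axis, log scale) and its BAP1 fold enrichment in C91A cells (y axis), coloured by the BAP1 knockout libraries that listed an RNF2 peak at it. The 60 members with a peak in both knockout libraries reach across the x axis up to 22.3, and 19 members have none in either.

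The members were not independent places in every case. They lay on 256 RNF2 peaks of the second wild-type library, and 71 members had another member within 1 kb. For 16 members the RNF2 peak reached a first wild-type peak elsewhere along its length, so these sat in a gap or at the edge of an RNF2 domain that both libraries listed. Chromosome 8 held the most members, 36 of its 168 BAP1 peaks, and chromosome X held 1.

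Selection by a threshold placed some strong RNF2 sites among the members. The nearest to a first wild-type peak was at Bnc1, which encodes the zinc finger protein basonuclin, 3 bp away, with an RNF2 fold enrichment of 22.3 in the second wild-type list. Next came Aldh3a2, a fatty aldehyde dehydrogenase, at 7 bp, Tbx2, a T-box factor of heart and limb development, at 14 bp, Pcbp1, an RNA-binding protein, at 23 bp, and Cops7a, a COP9 signalosome subunit, at 33 bp. Just outside the rule, the shortest overlaps with a first wild-type peak were 35 bp at Pcid2 and Cul4a, 40 bp at Insm2, 44 bp at BC052040, and 50 bp at Npas2 and at Eya4. Their second wild-type folds ran from 3.34 at BC052040 to 19.9 at Npas2. The term weak thus holds for the typical member only beside the RNF2 peaks under BAP1 on first wild-type RNF2, and not for strong sites such as Bnc1. Within the second wild-type list the typical member was not weak. Its RNF2 peak had a median fold of 3.39, against 3.21 over all 28770 peaks, and 163 of 277 members (58.8%) lay on a peak in the top 50% by fold. Leaving out every member with a first wild-type peak within 5 kb left 258.

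Among the BAP1 peaks at a gene end, the strongest (chr10:80854827-80855581) covered the divergent starts of Lsm7, a subunit of the LSM ring that binds U6 RNA in splicing, and Sppl2b, an intramembrane protease. Its BAP1 fold enrichment was 5.52. RNF2 had no peak there in the first wild-type library, and its fold enrichment was 5.89 in the second wild-type, 3.05 in the first BAP1 knockout and 9.20 in the second BAP1 knockout list. Psme3, which encodes the PA28-gamma activator of the proteasome, followed (chr11:101315799-101316372), with 5.44 for BAP1 and RNF2 values of 4.51, 2.32 and 6.50 in the same order of libraries. Both sites were thus listed in 3 of the 4 RNF2 libraries.

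Other strong sites lacked RNF2 in the first BAP1 knockout library. Dcaf11, a substrate receptor of CUL4 ubiquitin ligases, had a BAP1 fold of 5.14, with RNF2 at 3.39 in the second wild-type and 4.91 in the second BAP1 knockout list. Smarce1, a subunit of the BAF chromatin remodeler, and Crbn, the CUL4 substrate receptor cereblon, both had a BAP1 fold of 4.99. Their RNF2 peaks ranked apart within the second wild-type list: the Crbn peak, at a fold of 1.96, was in its weakest percent, and the Smarce1 peak, at 3.84, was in the upper 33.5%. Ctdsp2, a small phosphatase of the RNA polymerase II tail, had 4.91 for BAP1. Eif2ak3, the endoplasmic reticulum stress kinase PERK, had 4.77, with RNF2 at 4.04 in the second wild-type and 8.22 in the second BAP1 knockout list. Rb1cc1, the autophagy scaffold FIP200, had 4.76 for BAP1.

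A further 11 by BAP1 fold ran from 4.69 to 4.29. They were Letm2, a mitochondrial inner membrane protein (4.69, the only one of these besides Hps5 and Gtf2h1 with RNF2 in both BAP1 knockout lists), 1110038F14Rik, Stap2 with Mpnd, Crebrf, Ttc33, Polr3b, the second largest subunit of RNA polymerase III, Wdr48, the cofactor of several deubiquitinases, Lemd2, an inner nuclear membrane protein, Chmp1b of the ESCRT-III membrane complex, Ube2j2, a ubiquitin-conjugating enzyme of the endoplasmic reticulum, and Hps5 with Gtf2h1, a subunit of the general transcription factor TFIIH. Crebrf and Wdr48 had no RNF2 peak in either BAP1 knockout library, although RNF2 was listed at 2.07 and 3.13 in the second wild-type list.

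Ranked by RNF2 in BAP1 knockout cells, the members at the top mostly lay within 5 kb of a first wild-type RNF2 peak. The order by the lower of both knockout lists was Tbx2, Hoxa4, Bnc1, Man1c1, Tshz1, a zinc finger factor, with Zadh2 (2 members), Kazald1, Uhrf2, a ubiquitin ligase that binds modified DNA, and Ppp1r3e, a glycogen-targeting subunit of protein phosphatase (2 members). At Tbx2, RNF2 fold enrichment was 19 in the second wild-type, 24.7 in the first BAP1 knockout and 20.1 in the second BAP1 knockout list, on a second wild-type peak of 17409 bp. At Hoxa4 the values were 15.5, 29.5 and 18.5, on a peak of 122628 bp over the Hoxa cluster. Man1c1, a mannosidase of the Golgi (chr4:134703745-134703845), stood out from these. Its RNF2 folds were 17.1, 14.2 and 17.6, yet the nearest first wild-type peak was 331326 bp away. The 2 Ppp1r3e members were also far from one, at 62498 and 62097 bp, with a lower second wild-type fold of 7.54. Man1c1 had the highest second wild-type fold among the members with no first wild-type peak within 5 kb, and it was singled out after its values were seen.

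RNF2 was still listed in BAP1 knockout cells at nearly all members, in the deeper library. The second BAP1 knockout library had an RNF2 peak at 258 of 277 (93.1%, 89.5 to 95.6) and the first at 60 (21.7%, 17.2 to 26.9), and these 60 had a peak in both. The comparison that bears on BAP1 is with the other RNF2 peaks of the second wild-type library alone. Over all 25544 of these, 18.5% overlapped a peak of the first BAP1 knockout library and 84.6% one of the second. Of the 241 that carried a member and met no first wild-type peak, 46 (19.1%, 14.6 to 24.5) and 226 (93.8%, 90.0 to 96.2) did. The first share is near the background and is no result about the members. The second is above it, but gene-end peaks of the whole set already reached 92.0%, against 95.2% (91.4 to 97.4) for those with a member, whose interval holds 92.0.

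Within the gene-end peaks the first knockout library gave 19.1% (14.4 to 25) with a member and 24.8% (24.0 to 25.6) without BAP1, and the intervals overlap. Over all peaks, at gene ends or not, the share rose with the RNF2 fold enrichment in the second wild-type list. Below a second wild-type fold of 2.5, 1 of 33 peaks with a member (3.03%) overlapped a first BAP1 knockout peak, between 4 and 5 it was 13 of 34 (38.2%, 23.9 to 55), and at 5 or more 17 of 32 (53.1%, 36.4 to 69.1). Over all second-only peaks the same bins gave 6.12%, 28.5% and 71.1%. In the highest bin the peaks with a member were thus below the background, by a narrow margin at the upper limit, and in the other 5 bins the background lay inside the interval of the members. The highest bin has no upper bound, so the folds of the peaks compared in it need not be alike. Members with a first BAP1 knockout peak had a higher median second wild-type fold, 4.63 (60 members) against 3.23 (217 members).

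**Figure D3:**
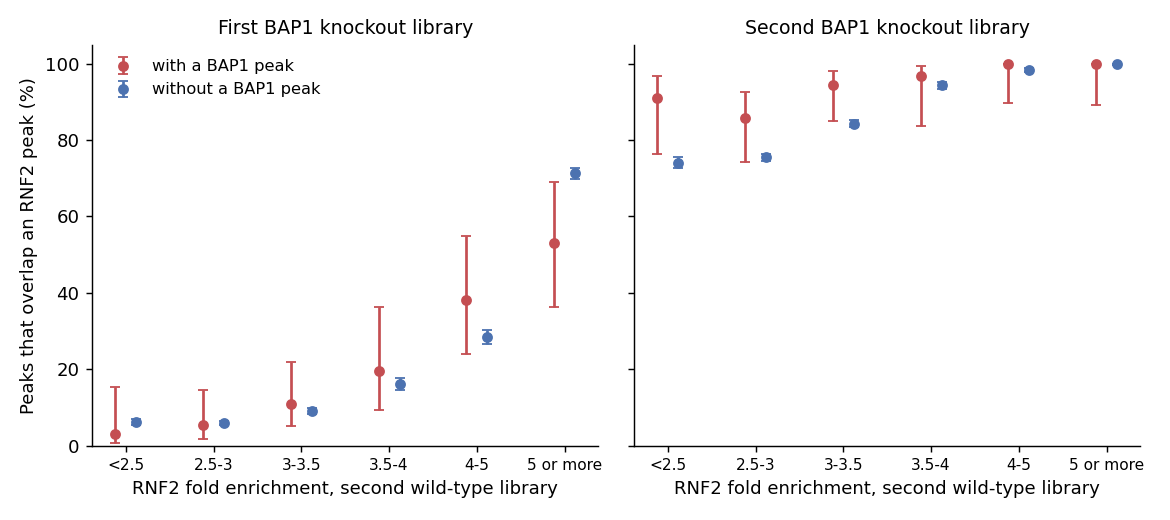
Share of second wild-type RNF2 peaks without a first wild-type peak that overlap an RNF2 peak in the first (left) or second (right) BAP1 knockout library (y axis, %), by their fold enrichment in the second wild-type list (x axis), for peaks with a member (red, 241 in all) and without any BAP1 peak (blue, 25303), with Wilson 95% intervals. In the left panel both sets climb with fold, and the red interval lies below the blue point only in the last bin, at 53.1% with an upper limit of 69.1.

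Around the members, RNF2 peaks covered more sequence in the second BAP1 knockout library than in the second wild-type one. Within 2 kb on each side of the BAP1 summit the median covered length was 637 bp in the second wild-type and 1128 bp in the second BAP1 knockout library. It was greater in the knockout at 239 of 277 members (86.3%, 81.7 to 89.8) and smaller at 34 (12.3%). In the first libraries the median was 0 bp in both genotypes, and the knockout covered more at 83 members (30.0%, 24.9 to 35.6), a direction that the rule fixes in large part, since members have no first wild-type peak. At the BAP1 peaks without wild-type RNF2 the knockout was greater at 67.5% (61.7 to 72.9), which the absence of a wild-type peak fixes in the same way. At those on first wild-type RNF2 it was greater at 7.24%, and there the median window was covered from end to end (4001 bp) in both libraries.

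Weak RNF2 peaks without BAP1 were longer in the second BAP1 knockout library too. Measured around the RNF2 summit, the second BAP1 knockout covered more than the second wild-type library at 88.8% (84.2 to 92.2) of the 241 peaks with a member and at 77.7% (77.2 to 78.2) of the 25303 without BAP1. Limited to gene ends, the shares were 90.0% (85.1 to 93.3) and 86.1% (85.4 to 86.7), with overlapping intervals, and the median differences were 450 and 445 bp. At gene ends the peaks with and without BAP1 were thus not separated by this measure. Each genotype has 1 library of this depth, and 2 against 2 libraries cannot give a two-sided exact permutation p below 0.333, so no p-value is given for the difference between genotypes.

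**Figure D4:**
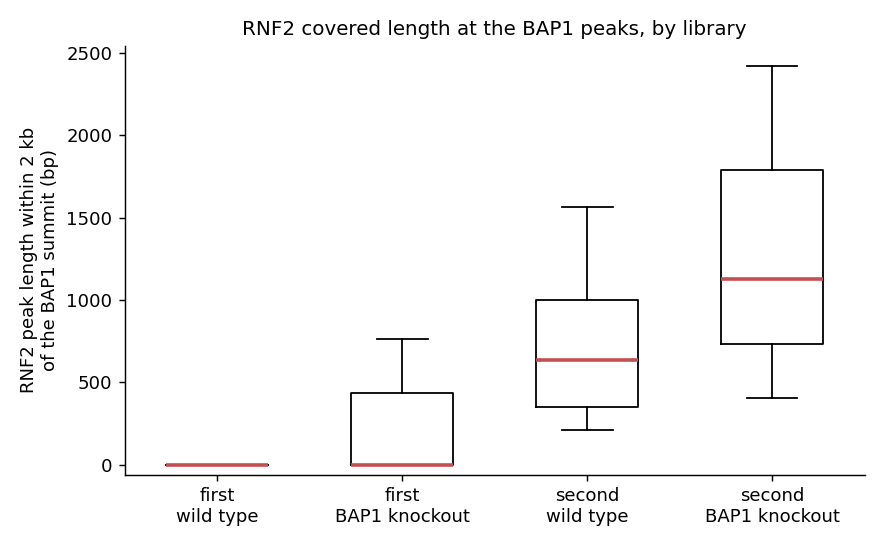
RNF2 peak length within 2 kb on each side of the BAP1 summit (y axis, bp) at the 277 members in each of the 4 RNF2 libraries of wild-type and BAP1 knockout cells. Lines are medians (0, 0, 637 and 1128 bp from left to right), boxes the quartiles and whiskers the 10th and 90th percentiles of members, which are not replicates.

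The 19 members with no RNF2 peak in either BAP1 knockout library had low values in wild type as well, with a median second wild-type fold of 2.76. Besides Crebrf and Wdr48 they included a site inside Camta1, a transcription activator gene, far from its ends (257137 bp from the nearest end), and one at Zfp868, a zinc-finger gene. A missing peak is no measure of lost binding at this strength.

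Protein-coding genes with an end within 1 kb of a member numbered 254, which is 1.17% of 21775. Of these 254, 5 also had a BAP1 peak on first wild-type RNF2, as 1.56% of all genes did, and 26 also had one without RNF2, as 1.16% of all genes did. Among 166 developmental transcription factors, 1 was at a member (Tbx2) and 111 at a BAP1 peak on first wild-type RNF2. Among 39 Hox genes, the body-axis factors, it was 1 (Hoxa4) against 33. The rule removes the BAP1 peaks on first wild-type RNF2, where these genes lie, and the member counts are near what the share of all genes gives, so neither count is a result about the members. Trophoblast (15), primitive endoderm (15), pluripotency (25), germ cell (25) and intrinsic apoptosis (25) lists had no gene at a member, and neither had 16 genes of PR-DUB and BAP1 partners. Lists this short would mostly hold none at the share of all genes. Over all, 44 of the 254 genes belonged to at least 1 of 37 lists, and 21 lists had none.

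Polycomb subunits themselves were touched at 1 of 37 PRC1 genes and 1 of 15 PRC2 genes. The first was Cbx2, a chromodomain subunit that reads trimethylated histone H3 (chr11:119023039-119023136). There the BAP1 fold was 3.83, and RNF2 was listed at 8.56 in the second wild-type and 17.1 in the second BAP1 knockout library, with no peak over the BAP1 peak in either first library and a first wild-type peak 77 bp away. The second was Ezh1, a methyltransferase subunit (chr11:101226282-101226331), with 3.10 for BAP1 and RNF2 at 3.33, 2.83 and 6.92 in the second wild-type, first and second BAP1 knockout lists. The shares of 2.70% and 6.67% rest on single genes.

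Lists of general cell functions had a few genes each. The list of translation factors and tRNA synthetases had 6 of 108 (5.56%, against 1.17% of all genes), with Eif2ak3, Eif1ad, Ears2 and Cars2 highest by BAP1, and none at a BAP1 peak on first wild-type RNF2. The 6 include Eif2ak3, the stress kinase PERK, so the share is not one of translation factors and synthetases alone. Ears2 and Cars2 are mitochondrial tRNA synthetases. The summit of the Ears2 peak lay 262 bp downstream of the start of Ubfd1. Splicing and RNA processing had 5 of 197 (2.54%), led by Lsm7, with Ddx21, an RNA helicase of the nucleolus, Rbm6 and Cwc27. Proteasome and chaperonin had 3 of 64 (4.69%): Psme3, Psme3ip1, whose product binds PA28-gamma, and Nploc4, a cofactor of the p97 segregase. Mitochondrial ribosomal proteins had 3 of 78 (3.85%), Mrpl43, Mrpl20 and Mrpl39, against 11 for BAP1 peaks without RNF2. Respiratory complex I had none of 49, against 6 for BAP1 peaks without RNF2. These counts are too small to set the lists apart from one another.

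Among regulators of chromatin and protein turnover, chromatin remodelers and histone modifiers had 3 of 83: Smarce1, the histone methyltransferase Ehmt1 and the acetyltransferase Kat6a. Ubiquitin ligases and conjugating enzymes had 6 of 322 (1.86%), with Ube2j2, Rnf26, Ube3b and Fbxo8 highest, and deubiquitinases 1 of 76 (Otud4). Zinc-finger genes named Zfp had 6 of 397 (1.51%), near the share of all genes, with Zfp518a, Zfp868, Zfp768 and Zfp26 highest. DNA repair had 1 of 64, Nbn of the MRN complex. Hedgehog and Notch pathways had 2 of 34: Notch1, the receptor, with RNF2 at 6.87 in the second wild-type and 12.0 in the second BAP1 knockout list, and the ligand Dhh, whose peak lay at the neighbouring end of Rhebl1. Solute carriers had 3 of 375, Slc39a6, Slc39a13 and Slc11a1, and ion channels 1 of 134, Cacng2.

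A few strong members lay far from any protein-coding gene end. One on chromosome 13 (chr13:65240822-65241729) was the widest of all members at 908 bp, with a BAP1 fold of 5.35 and RNF2 at 3.72, 2.64 and 5.11 in the second wild-type, first and second BAP1 knockout lists. Its nearest protein-coding gene end, Nlrp4f, was 35629 bp away, but its summit lay 170 bp upstream of the annotated start of Gm36445, which is not a protein-coding gene. Others lay inside B4galnt2 (BAP1 fold 4.76), Camta1 (4.06) and Brd3, a bromodomain gene (3.99), and between genes near Mlana (4.06). The Brd3 site was 581 bp upstream of an annotated internal start of that gene. In all, 10 members had no gene end within 10 kb.

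The promoters under the members carried ETS letters far more often than other promoters with weak RNF2. Of the 194 promoter windows that a member overlapped, from 170 genes, 73 held CCGGAAG on either strand (37.6%, 31.1 to 44.6). The share was 13.5% (12.8 to 14.3) in 7543 windows under a second wild-type RNF2 peak with neither a first wild-type nor a BAP1 peak, 8.86% in all 32851 windows of the table, 7.49% (4.51 to 12.2) under BAP1 on first wild-type RNF2 and 47.4% (40.2 to 54.8) under BAP1 without RNF2. With 1 window a gene it was 36.5% (29.6 to 43.9) against 13.5%. The share was higher under the members in each of 4 bins of CpG content and each of 4 bins of GC content, with intervals that did not overlap. Between an observed over expected CpG of 0.6 and 0.8, for example, the shares were 41.7% (30.1 to 54.3) and 13% (11.7 to 14.5). The median GC content was 65.7% under the members and 64.3% in the windows without BAP1, and the median CpG ratios were 0.878 and 0.768.

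The ETS matches lay near the BAP1 summit. The median distance was 55 bp, 34 of the 73 windows had a match within 50 bp of the summit, and in 41 a match lay inside the BAP1 peak. The window itself limits how far a match can be, and CCAAT, a promoter box bound by NFY, lay a median of 126 bp from the summit in its member windows. Other letters lay about as near as ETS or nearer. The YY1 letters were at 43 bp (15 windows), TGACGTCA of CREB factors at 51.5 bp (6 windows) and the RFX half-site GTTGCNA at 56 bp. The GC box GGGCGG lay somewhat farther, at 78 bp. Nearness was thus not particular to ETS. Only 2 windows had an ETS match that shared bases with another of the motifs described here.

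NRF1, YY1 and forkhead letters were in fewer of the member windows than ETS. The NRF1 letters CGCANGCG were in 24.7% (19.2 to 31.3) of the member windows and 17.8% (17.0 to 18.7) of the weak RNF2 windows without BAP1, against 8.21% of all windows. The YY1 letters ATGGCGGC were in 7.73% (4.74 to 12.4) against 3.79% (3.38 to 4.25), and 13 of these 15 windows had the match inside the BAP1 peak. Forkhead letters TGTTTAC were in 7.73% (4.74 to 12.4) against 1.92% (1.64 to 2.26), with 3.65% over all windows. BAP1 peaks without RNF2 gave 17.1% for NRF1, 16.0% (11.3 to 22.2) for YY1 and 8.57% for forkhead. At least 1 of ETS, NRF1 and YY1 was present in 117 member windows (60.3%, 53.3 to 66.9) and in 30.7% (29.7 to 31.8) of weak RNF2 windows without BAP1. The 194 member windows came from 150 members, and windows at 1 BAP1 peak, such as those of Gtf2h1 and Hps5, can hold the same match. The intervals count such windows as separate and are thus too narrow. Only ETS was recounted with 1 window a gene, so the smaller differences for NRF1 and YY1 are uncertain.

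For other letters the members were close to the weak RNF2 windows without BAP1 or below them. The GC box GGGCGG was in 70.1% and 70.4%, and the E-box CACGTG in 13.9% (9.74 to 19.5) and 10.6%. The E-box was rarer under BAP1 without RNF2, at 2.86% (1.23 to 6.51). CCAAT was less frequent in the member windows, 20.1% (15.1 to 26.3) against 32.0% (30.9 to 33.0). In all, 16 motifs were searched. For the other 9, the share in weak RNF2 windows without BAP1 lay inside the interval of the members. A match of letters is a description and no evidence of binding by a factor.

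**Figure D5:**
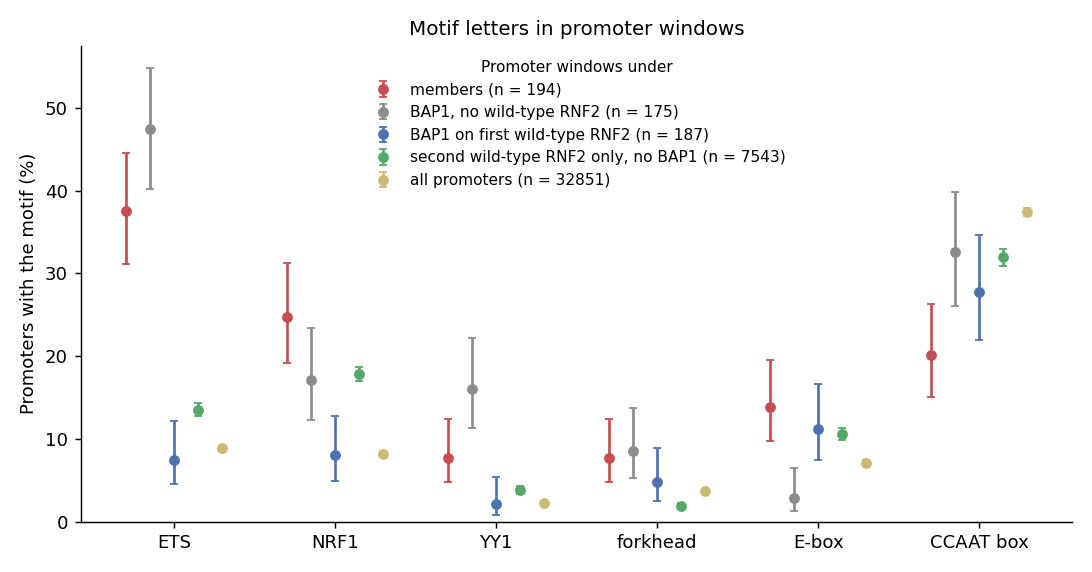
Share of 300-base promoter windows that hold each motif on either strand (y axis, %, with Wilson 95% intervals) for 6 motifs (x axis), in windows under the members (red, 194), under BAP1 peaks without wild-type RNF2 (grey, 175), under BAP1 on first wild-type RNF2 (blue, 187), under second wild-type RNF2 alone without BAP1 (green, 7543) and over all windows (yellow, 32851). The red ETS point, at 37.6%, is far above the green one at 13.5% and the blue one at 7.49%. The grey ETS point is higher, at 47.4%, with an interval that overlaps the red one.

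In the RNF2 of BAP1 knockout cells, member windows with and without ETS letters had overlapping intervals. A first BAP1 knockout peak lay at the member of 11 of 73 windows with the letters (15.1%, 8.63 to 25) and 30 of 121 without (24.8%, 18 to 33.2). The median BAP1 folds were 3.53 and 3.55.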

How the data were processed

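The submitters' processing notes name GSNAP for mapping and GRCm38 (mm10) as the build; no aligner version is given in the sources used here. MACS2 had called peaks in each ChIP library against its own input with a q-value limit of 0.05, per the file headers. Version 2.1.0.20150420 served the first RNF2 and both BAP1 libraries and 2.1.1.20160309 the others. Fragment lengths per the file headers were 297 and 323 bp in the first RNF2 libraries, 100 bp in the second ones and 50 bp in C91A. The deposited lists hold, per peak, the authors' pileup signal, −log10 p and q values and a fold enrichment (a ratio). Signal was not used, and fold enrichment only describes and ranks peaks within a list.

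Overlaps of at least 1 bp, gene distances and motif matches were computed with Python 3.11.15, pandas 2.3.3 and numpy 2.4.6 and tested on simulated data. Genes (21775 protein-coding) and promoter windows (32851, from 27025 genes) came from RefSeq tables of GRCm38.p6. A promoter window was overlapped by 150 members. The gene table gives ends without strand. Distances to start sites use the nearest protein-coding start in the promoter table, which held starts for 17491 of these genes. The motif windows were not limited to protein-coding genes. Named genes are the 20 members with the highest BAP1 fold and a gene end within 1 kb, the 10 highest by RNF2 in the lower BAP1 knockout list, up to 4 genes per list, the 5 members nearest a first wild-type peak, the 5 shortest overlaps outside the rule, and the 5 strongest with no gene end within 10 kb. Of these, 1 is not reported here. Members, gene lists and motifs were chosen with earlier results of these data known. Genotypes were not tested against each other, and shares carry Wilson 95% intervals. Alternatives covered overlap, distance, −log10 q minimums, windows and left-out libraries.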

Additional observations from a re-analysis of the deposited data

How the results depend on the processing

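Of 71 alternative values of the main results, 44 stayed within the interval of the reported share or within 1.5 times the reported count, and 27 moved. Asking for the larger part of the BAP1 peak to be covered, for its summit inside the RNF2 peak, or for no first wild-type peak within 1 or 5 kb moved none of them, nor did coverage windows of 1 or 5 kb, 1 promoter a gene, or counting genes that share a BAP1 peak as 1 locus. A BAP1 −log10 q of at least 5 left 43 members at 43 genes, with 79.1% at a gene end and ETS letters in 28.6% of their promoter windows. At 10 or more it left 3 members at 3 genes, where the shares (100.0% with RNF2 in the first and 100.0% in the second BAP1 knockout library, 66.7% at a gene end, 20.0% with ETS letters) rest on too few peaks to be read. A second wild-type RNF2 −log10 q of at least 5 raised the share with a first BAP1 knockout peak to 28.6%. At 10 or more, 104 members at 100.0 genes remained in the set, 45.2% with a first and 99.04% with a second BAP1 knockout peak. With that minimum of 5 set on the BAP1 knockout peaks instead, the second library gave 89.53%, and at 10 or more the shares were 9.75% in the first and 68.6% in the second. Gene windows of 500 bp and 2.5 kb gave 77.3% and 90.25% at a gene end. Without the first wild-type library the rule takes in every BAP1 peak on second wild-type RNF2: 2127 peaks at 588 genes, with 89.6% and 99.1% in the BAP1 knockout libraries, 47.1% at a gene end and ETS letters in 22.8% of windows. Without the second wild-type library the rule cannot be applied and gives no value. The share with RNF2 in all BAP1 knockout libraries ranged from 21.7% without the second to 93.1% without the first, so the first, shallower library decides it. No paired analysis was possible because these shares and lengths come from no test; same-numbered libraries, which are alike in depth and caller settings, were set side by side. Depth limits all of these: a site missing from a list may be bound below what that library could show.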

Other observations

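Some genes outside the naming rule and the lists were noticed after the values were seen, and no count or share was made from them. A BAP1 peak with a fold enrichment of 3.94 lay at the start of Exosc10, an exosome nuclease, and near an end of the adjoining Mtor, the growth-control kinase. The promoter windows it overlapped were those of Exosc10 only, so it is not shown to lie at the Mtor start. RNF2 was listed there at 3.85 in the second wild-type, 3.39 in the first BAP1 knockout and 6.72 in the second BAP1 knockout library. Rptor, the scaffold of the Mtor kinase complex, had a BAP1 fold of 3.32, and RNF2 at 2.76 in the second wild-type and 3.92 in the second BAP1 knockout list. Ngly1, the enzyme that removes N-glycans from misfolded proteins, shared a member with Oxsm. RNF2 there stood at 7.15, 3.81 and 12.90 in the second wild-type, first and second BAP1 knockout lists. Nfe2l1, the transcription factor that Ngly1 acts on, had RNF2 at 2.94 in the second wild-type and 5.45 in the second BAP1 knockout list. Mbtps1, a protease of the Golgi, held 2 members on 1 RNF2 peak of fold 2.24, with none in either BAP1 knockout list.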
